A study of Homo sapiens with 21 samples.

Results

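CCL2 and 9 other genes for inflammatory cytokines and chemokines, CXCL1, CXCL2, CXCL3, CXCL8, IL6, IL1A, IL1B, LIF and CSF2, were followed in 17 human cancer cell lines. They were found by their Ensembl identifiers, and all 10 were present among the 53515 genes counted in each RNA sequencing library. The genes were picked with earlier results of these data known and for their change in resistant cells, so that their levels and changes are given as a description, with no test. The 17 lines were 7 treatment-naïve parental lines, labelled sensitive, and 10 derived lines, labelled resistant, in 21 libraries of polyadenylated RNA from cultured cells. HepG2, from liver, was the parental line of HepG2S1 and HepG2S3, which resist the kinase inhibitor sorafenib. PancVB, which the study traces to the pancreatic line Panc03.27, was the parental line of PancB1Q and PancB1V, which resist 5-fluorouracil. The lung line HCC4006 was present as 2 parental stocks, HCC4006P1 for the erlotinib-resistant HCC4006ER and HCC4006P2 for the gefitinib-resistant HCC4006GR. HCC827P, also from lung, was the parental line of the gefitinib-resistant HCC827GR. Of the ovarian lines, UWB1.289 gave U10 and U100, which resist the PARP inhibitor olaparib, and IGROV-1 gave IGROV-1/CDDP, which resists cisplatin. The resistant lines had been selected by rising drug doses over months, so that each is 1 selected population and time in culture cannot be told apart from the drug. Replicate libraries, 2 a line, existed for HepG2, HepG2S3, HCC4006P1 and HCC4006ER, whereas 13 lines had a single library with no replicate check. Fewer cells that express a gene and less RNA per cell cannot be told apart in such bulk libraries.

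Chemokines are small secreted proteins that draw leukocytes along a gradient. CCL2, monocyte chemoattractant protein, acts on the receptor CCR2 of monocytes, whereas CXCL1, CXCL2, CXCL3 and CXCL8 (interleukin 8) act on CXCR2 and draw neutrophils. IL1A and IL1B encode interleukin 1 alpha and beta, alarm cytokines that signal through IL1R1 and switch on the transcription factor NF-kappaB. IL6 and LIF encode cytokines that signal through receptors sharing the IL6ST chain (gp130) to the kinase JAK1 and the factor STAT3, and CSF2 encodes the growth factor GM-CSF, which supports granulocytes and macrophages. Many of these genes are known targets of NF-kappaB, and tumour cells of many origins secrete the proteins.

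CXCL8, CXCL1, CXCL3 and CXCL2 lie within 359 kb of chromosome 4 of GRCh37, from 74606236 to 74964913, and IL1A and IL1B lie near each other on chromosome 2. In order of position these are CXCL8 (ENSG00000169429, from 74606236 to 74609433, plus strand), CXCL1 (ENSG00000163739, 74735110 to 74737025, plus), CXCL3 (ENSG00000163734, 74902306 to 74904524, minus) and CXCL2 (ENSG00000081041, 74962757 to 74964913, minus). IL1A (ENSG00000115008) spans 113531502 to 113542070 and IL1B (ENSG00000125538) 113587328 to 113594393, both on the minus strand. CCL2 (ENSG00000108691) is on chromosome 17 (32582293 to 32584227, plus strand) and IL6 (ENSG00000136244) on chromosome 7 (22765503 to 22771621, plus). LIF (ENSG00000128342) is on chromosome 22 (30636442 to 30642748, minus) and CSF2 (ENSG00000164400) on chromosome 5 (131409482 to 131411863, plus). The 250 bases before the start of the canonical transcript were searched on both strands for the kappaB consensus, the 10-letter motif bound by NF-kappaB. It was present at CXCL1, CXCL2, CXCL3 and IL6, 4 of the 10 genes, and in 5.86% of 19894 promoters of protein-coding genes. The stretches of 30 bases around the match are shown because they lie at nearly the same distance from the start in the 3 CXCL genes. Capitals mark the consensus, or, in CXCL8, the 9-letter core GGAATTTCC that the 3 sites share. In the 3 CXCL genes the 11 capitals are overlapping matches on both strands.
CXCL1 chr4:74735021-74735050, plus strand: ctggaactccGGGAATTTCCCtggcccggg
CXCL2 chr4:74964971-74965000, minus strand: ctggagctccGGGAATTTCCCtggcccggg
CXCL3 chr4:74904466-74904495, minus strand: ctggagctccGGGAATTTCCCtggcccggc
CXCL8 chr4:74606185-74606214, plus strand: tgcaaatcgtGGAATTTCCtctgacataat
IL6 chr7:22766736-22766765, plus strand: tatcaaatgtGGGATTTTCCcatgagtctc

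Counted from the start of the canonical transcript, the capitals began 79 bases before it in CXCL1 and CXCL3 and 78 in CXCL2. In CXCL8 they began 91 bases before it and in IL6 73. That start lies inside the gene span given above in CXCL3, CXCL8 and IL6, and by 1 base in CXCL2. The 9-letter core, chosen after these sequences were read, was held by 4 of the 10 genes and by 0.352% of all promoters. The AP-1 motif TGANTCA was found at CXCL8 and IL1A and in 4.69% of promoters, and the C/EBP motif TTGCNNAA at CXCL2, IL6 and IL1B and in 7.10%. The TATA box letters TATAAA, searched on the gene's strand only, were found at CXCL8, IL1A and LIF and in 6.82%. They began 31 bases before the start in CXCL8 and 29 in LIF, but 239 in IL1A. No kappaB consensus match was found before the other 6 genes, which says only that these letters are not in this window. The 150 bases before CXCL1 and CXCL2 are shown for the likeness of the pair, with capitals as above.
CXCL1 chr4:74734960-74735109, plus strand: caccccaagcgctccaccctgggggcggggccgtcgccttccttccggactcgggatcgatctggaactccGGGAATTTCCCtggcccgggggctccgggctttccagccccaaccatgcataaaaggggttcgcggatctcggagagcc
CXCL2 chr4:74964913-74965062, minus strand: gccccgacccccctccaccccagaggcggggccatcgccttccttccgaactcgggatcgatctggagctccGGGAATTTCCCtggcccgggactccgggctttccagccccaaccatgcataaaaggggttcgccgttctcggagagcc

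The transcripts are alike as well. The canonical transcripts of CXCL1 and CXCL2 were 91.1% identical over 1094 aligned bases, those of CXCL1 and CXCL3 82.2% and those of CXCL2 and CXCL3 83.6%. Of the 50-base windows of the CXCL2 transcript, 5.63% occurred unchanged in CXCL1. Reads from such windows can be assigned to no single gene, so that the counts of CXCL1, CXCL2 and CXCL3 are uncertain to that extent.

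The libraries held between 9851195 and 36639473 counts on genes, and 3 counts, taken as the floor of detection, were 0.0819 to 0.305 CPM (a depth-scaled count, the count of a gene scaled to a common total on all genes). Replicate 1 of HCC4006P1 had no counts past a point in chromosome 7. None of the 10 genes lies past it, but the missing stretch held 18.1% of the counts of replicate 2, so that the CPM of replicate 1 are too high to a like degree. Some lines went against their tissue labels. ALB, AFP and APOA1, markers of liver cells, summed to 17.1 CPM in HepG2S3 and 0 CPM in HepG2S1, although HepG2 expressed them strongly. The lung markers NKX2-1, NAPSA and SFTPB were each below 0.5 CPM in HCC4006P1 and HCC4006ER. NKX2-1 was at 113 CPM in HCC4006P2, 18.6 CPM in HCC4006GR, 56.0 CPM in HCC827P and 15.4 CPM in HCC827GR. NAPSA was at 143, 1.52, 35.4 and 12.3 CPM in the same order. SFTPB was at 10.1 CPM in HCC4006P2 and 1.13 CPM in HCC4006GR. It was also below 0.5 CPM in HCC827P and HCC827GR, and so did not set these apart from HCC4006P1 and HCC4006ER. PDX1 was at or below 0.201 CPM in the pancreatic lines, which expressed KRT19. KRT19 and GATA6 did not set these lines apart, at 677 and 5.29 CPM in PancVB against 1723 and 5.23 CPM in HCC4006P1. WT1 was at or below 0.488 CPM in the ovarian lines, which expressed PAX8. MUC16 was at 30.1 to 103 CPM in the UWB1.289 family, 0.473 CPM in IGROV-1, 0.554 CPM in IGROV-1/CDDP and 618 CPM in the lung line HCC827P. Whether HepG2S1, HepG2S3, HCC4006P1 and HCC4006ER descend from the lines their labels name was not tested, so that their differences from the labelled parental line are between lines of uncertain identity. Of 8 immune cell markers, TYROBP was at 0 CPM in all 17 lines and CD3E at or below 0.0662 CPM, and the summed level ran from 1.31 to 17.6 CPM in parental and from 0.751 to 52.3 CPM in resistant lines. The highest sum, that of HCC4006GR, came mostly from CSF1R at 43.6 CPM, against 3.23 CPM in HCC4006P2, and the part of such cells in the results was not tested.

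A gene was counted as past 2-fold where log2(CPM + 1) of the resistant line minus that of the parental line was at least 1 in size and the mean of both lines was at least 1 CPM. Of the 100 changes of 10 genes in 10 pairs, 79 could be measured in this way. In 51 the gene was past 2-fold higher in the resistant line, in 9 past 2-fold lower and in 19 within 2-fold. Of all genes measured in a pair, 5.5% to 27.5% were past 2-fold higher and 1.76% to 18.3% lower, as given by pair below. Without the 3 pairs of HepG2 and HCC4006P1, a choice made after seeing the data, the counts were 42 higher and 4 lower. The widest gap between replicate libraries of a line, 4.68 times, was that of CXCL8 in HCC4006P1. The largest such gap on the log2(CPM + 1) scale was 1.93, and 37 of the 51 higher and 6 of the 9 lower values lay beyond it. The share of all genes beyond it was not computed. This gap is known for 4 lines only and does not measure the spread between separately kept cultures. The parental stocks HCC4006P1 and HCC4006P2 had CCL2 at 2.67 and 89.0 CPM and CXCL8 at 9.18 and 15.7 CPM.

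**Figure D1:**
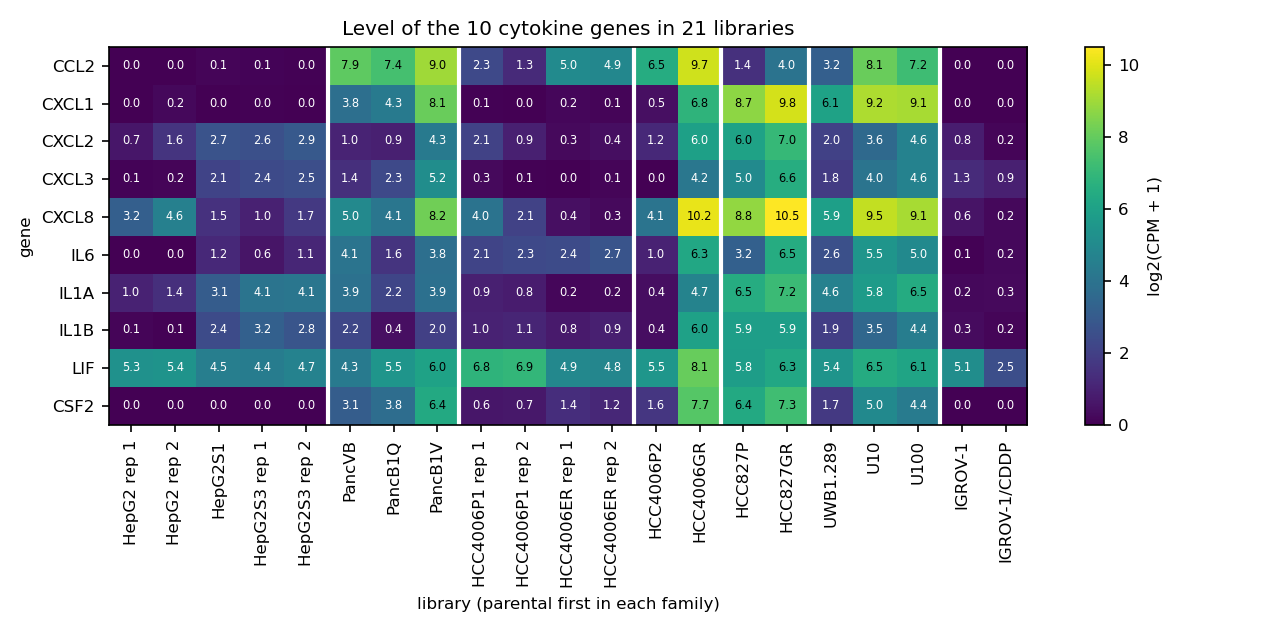
Heat map of the level of each of the 10 genes (rows) in each of the 21 libraries (columns), as log2(CPM + 1), with white lines between families and the parental line first in each. HCC4006GR, HCC827GR, PancB1V, U10 and U100 are bright in most rows, whereas both IGROV-1 lines are dark in all rows but that of LIF.

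All 10 genes were past 2-fold higher in HCC4006GR, with a median log2 change of 5.01. Of all genes measured in that pair, 7.67% were past 2-fold higher and 7.48% lower, with a median change of -0.08. In U10 likewise 10 of 10 were higher (median 2.56, against 6.36% of all genes higher and 5.01% lower), and in U100 9 of 10 (median 2.63, against 6.37% and 1.76%). PancB1V had 7 of 10 higher and 0 lower (median 2.48, against 8.72% of all genes higher and 7.24% lower), and HCC827GR 5 of 10 higher and 0 lower (median 1.04, against 10.5% and 7.79%). The other pairs were mixed. Of the 6 genes measured in HepG2S1, 4 were higher and 1 lower, as in HepG2S3, against 25.8% of all genes higher and 18.3% lower in HepG2S1 and 27.5% and 17.4% in HepG2S3. PancB1Q had 1 gene higher and 3 lower of 9, against 6.14% and 9.41% of all genes. HCC4006ER had 1 higher and 3 lower of 6, against 11.7% and 11.7%, and IGROV-1/CDDP 0 higher and 1 lower of 2, against 5.5% and 7.19%. Since the genes were chosen on these pairs, the shares of all genes stand beside the counts and nothing is read from the difference. The resistant lines of one parental line share its libraries, so that U10 and U100, PancB1Q and PancB1V, and HepG2S1 and HepG2S3 are not independent.

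**Figure D2:**
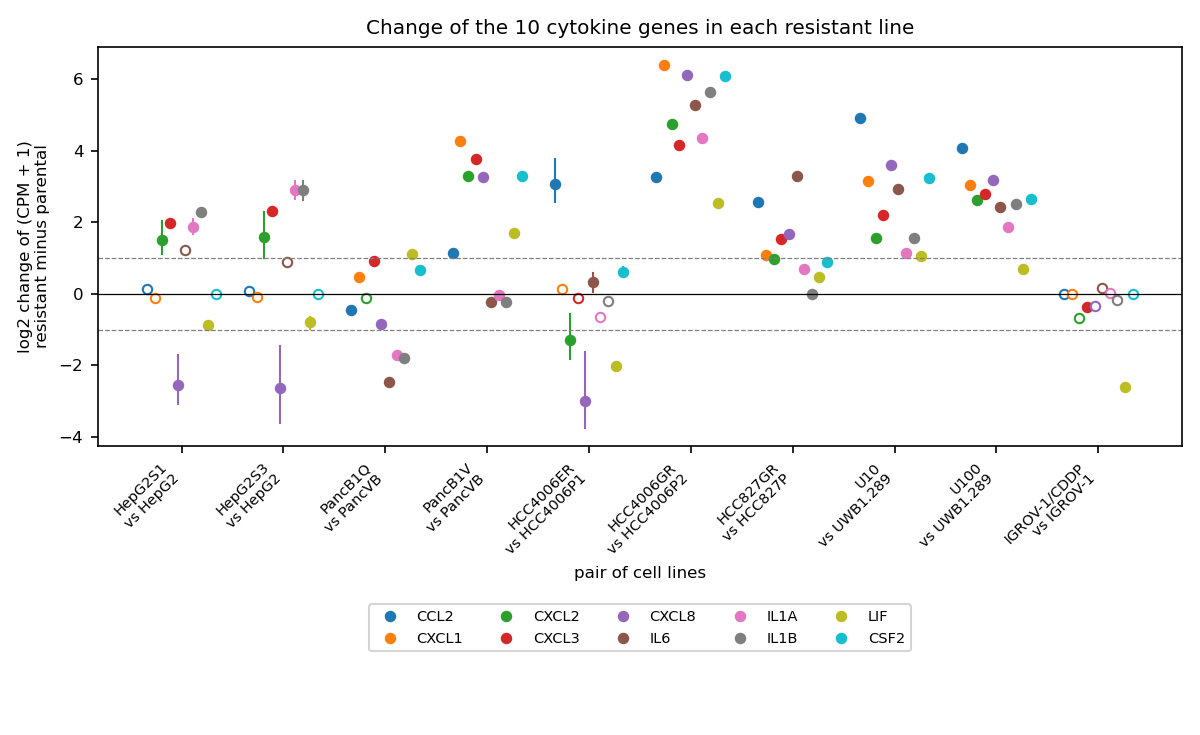
Log2 change of (CPM + 1), resistant minus parental, of each gene (colour) in each of the 10 pairs, with dashed lines at 2-fold in either direction. Filled points had a mean of at least 1 CPM, open points less, and bars give the range over pairings of libraries where a line had 2. All 10 points of HCC4006GR and of U10 lie above the upper dashed line, whereas PancB1Q and HCC4006ER have points above the upper and below the lower line.

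CCL2 was past 2-fold higher in 6 of the 7 pairs in which it was measured and past 2-fold lower in none of them. Its level was 858 CPM in HCC4006GR (95% Wilson interval 844 to 873) against 89.0 CPM in HCC4006P2 (84.1 to 94.1), 9.65-fold higher (counting interval 9.09 to 10.2). In the ovarian UWB1.289 it was 8.0 CPM (6.53 to 9.8), and it was 34.0-fold higher in U10, at 272 CPM (fold interval 27.7 to 42.3), and 18.6-fold higher in U100, at 149 CPM (15.1 to 23.2). Thus HCC4006GR started from a parental line that already expressed CCL2, and U10 and U100 from a low one. HCC827P had 1.73 CPM and HCC827GR 15.2 CPM, an 8.77-fold difference (5.98 to 13.3). In the pancreatic family PancVB had 235 CPM, PancB1V 520 CPM, 2.21-fold higher (2.14 to 2.28), and PancB1Q 170 CPM, 1.38-fold lower (1.33 to 1.43). The resistant pancreatic lines therefore lay on opposite sides of their parental line, PancB1Q within 2-fold of it.

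In HCC4006P1, CCL2 was at 3.95 CPM in replicate 1 and 1.38 CPM in replicate 2, and in HCC4006ER at 31.7 and 28.5 CPM. The libraries of the pair did not overlap, and the ratio of the means was 11.3, from 7.21 to 22.9 over the pairings of libraries. At the pseudocount of 1 CPM no other of the 10 genes was counted past 2-fold higher in HCC4006ER, although CSF2 was past it with 0.1 CPM. No CCL2 read was counted in the HepG2 and IGROV-1 parental lines or in the cisplatin-resistant line, 0 counts in each library, and there were at most 2 counts in HepG2S1 and HepG2S3, at or under the floor. Of all 17 lines, HCC4006GR was first in CCL2, followed by PancB1V, U10, PancVB, PancB1Q, U100, HCC4006P2, HCC4006ER, HCC827GR, UWB1.289, HCC4006P1 and HCC827P. Among these 12 lines above the floor, only the neighbours HCC4006P1 and HCC827P overlapped within their spread. The order of CCL2 was not that of the other chemokines, since PancVB and PancB1Q stood among the highest lines for CCL2 and HCC827P among the lowest.

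CXCL8, interleukin 8, was at 15.7 CPM in HCC4006P2 and 1144 CPM in HCC4006GR, 73.1-fold higher (counting interval 63.9 to 84.1). HCC827P already had 452 CPM, and HCC827GR had 1455 CPM, 3.22-fold higher (3.14 to 3.30) and the highest level of CXCL8 in any line. UWB1.289 had 60.1 CPM, U10 743 CPM and U100 558 CPM, 12.4-fold (11.4 to 13.4) and 9.27-fold higher (8.58 to 10.0). The counting interval of each of these 4 ratios lay above 1. PancVB had 30.2 CPM, PancB1V 298 CPM, 9.85-fold higher (9.09 to 10.7), and PancB1Q 16.4 CPM, 1.85-fold lower (1.64 to 2.09).

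In the HepG2 and HCC4006P1 families CXCL8 was lower in the resistant lines. HepG2 had 8.16 CPM in replicate 1 and 22.8 CPM in replicate 2, against 1.83 CPM in HepG2S1 and 0.968 and 2.32 CPM in HepG2S3. The libraries did not overlap, and the ratio of means was 9.43 in HepG2S3, from 3.52 to 23.6 over the pairings. HCC4006P1 had 15.1 and 3.23 CPM and HCC4006ER 0.354 and 0.205 CPM, 32.8-fold lower in the means and from 9.12 to 73.6 over the pairings. CXCL8 thus stood apart from CCL2 in HCC4006ER, where CCL2 was higher and CXCL8 lower. In IGROV-1 and IGROV-1/CDDP it was at 0.473 and 0.158 CPM.

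**Figure D3:**
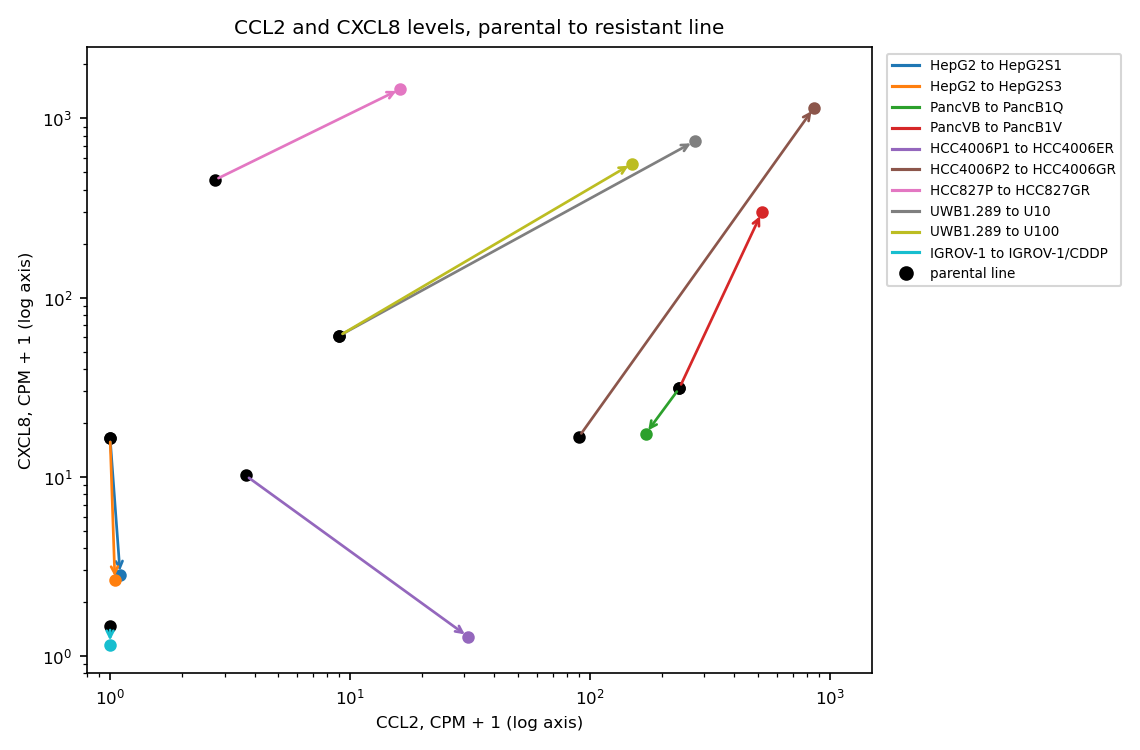
CCL2 against CXCL8 level (CPM + 1, both axes logarithmic), with an arrow from each parental line (black) to each resistant line. The arrows of HCC4006GR, HCC827GR, PancB1V, U10 and U100 point to higher CCL2 and CXCL8, that of HCC4006ER to higher CCL2 and lower CXCL8, and those of HepG2S1 and HepG2S3 to lower CXCL8 at CCL2 levels at or under the floor.

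CXCL1 (GRO alpha) was at 0.367 CPM in HCC4006P2 and 114 CPM in HCC4006GR. From 5 counts in the parental line this is 310-fold higher, with a counting interval of 133 to 956, the largest log2 change of any of the 10 genes, 6.39. HCC827P had 427 CPM and HCC827GR 907 CPM, 2.13-fold higher (2.07 to 2.19). The log2 change there was 1.09, and 1.00 with TMM library sizes (trimmed mean of M-values, a scaling on genes of stable level), just short of 2-fold. UWB1.289 had 66.3 CPM, against 601 CPM in U10, 9.05-fold higher (8.40 to 9.77), and 557 CPM in U100, 8.40-fold higher (7.80 to 9.06). PancVB had 13.1 CPM, PancB1Q 18.5 CPM and PancB1V 271 CPM, 20.7-fold higher (18.4 to 23.4) in the latter. CXCL1 was near or under the floor in the HepG2, HCC4006P1 and IGROV-1 families, with at most 0.172 CPM in any library.

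CXCL2 and CXCL3 are the close relatives of CXCL1. CXCL2 was at 1.32 CPM in HCC4006P2 and 61.1 CPM in HCC4006GR, 46.2-fold higher (29.1 to 78.3), and at 1.06 CPM in PancVB and 19.1 CPM in PancB1V, 18.1-fold higher (11.9 to 28.8). Against 3.1 CPM in UWB1.289 it was 3.56-fold higher in U10, at 11 CPM, and in U100 7.78-fold higher, at 24.1 CPM. HCC827GR had 129 CPM against 64.9 CPM in HCC827P, a log2 change of 0.98 just short of 2-fold. CXCL3 had 0 counts in HCC4006P2 and 17 CPM in HCC4006GR, at least 77.2-fold higher than the floor of that library. It was 21.1-fold higher in PancB1V (1.66 to 35.0 CPM), 6.01-fold in U10 (2.58 to 15.5 CPM), 9.28-fold in U100 (24.0 CPM) and 2.97-fold in HCC827GR (31.3 to 93.1 CPM). PancB1Q had 3.99 CPM, a log2 change of 0.91, which became 1.07 with TMM library sizes.

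Both genes were also higher in the sorafenib-resistant lines. CXCL2 was at 0.573 and 1.98 CPM in HepG2, 5.38 CPM in HepG2S1 and 4.97 and 6.69 CPM in HepG2S3. CXCL3 was at 0.0819 and 0.115 CPM in HepG2, 3.35 CPM in HepG2S1 and 4.12 and 4.73 CPM in HepG2S3. For both genes all libraries of the resistant lines lay above both HepG2 libraries, while CXCL8 lay below and CXCL1 stayed near the floor. In HCC4006ER, CXCL2 was at 0.202 and 0.308 CPM against 3.21 and 0.923 CPM in HCC4006P1, so that the 2 replicated pairs lay in opposite directions. The log2 change of -1.29 in HCC4006ER ran from -1.81 to -0.56 over the pairings of libraries, and without HCC4006P1 replicate 1 the mean was below 1 CPM and the change was not counted. With the larger pseudocount of 5 CPM, 12 changes of the 10 genes in all pairs lost their place past 2-fold, those of CXCL2 and CXCL3 in HepG2S1 and HepG2S3 and of CXCL2 in HCC4006ER among them. The others were CXCL2, IL1B and LIF in U10, IL1A and IL1B in HepG2S1, and IL1B and LIF in PancB1Q.

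The interleukin 1 genes were past 2-fold higher in the same 5 lines as each other, HepG2S1, HepG2S3, HCC4006GR, U10 and U100. IL1B was at 0.109 and 0.0574 CPM in HepG2, 4.26 CPM in HepG2S1 and 8.34 and 5.81 CPM in HepG2S3. The ratio of means was 51.2 in HepG2S1 and 85.0 in HepG2S3, from 53.2 to 145 over the pairings of the latter, from at most 4 counts in each HepG2 library. IL1A was at 0.983 and 1.64 CPM in HepG2, 7.41 CPM in HepG2S1 and 15.7 and 16.5 CPM in HepG2S3, 12.3-fold higher in the means (9.61 to 16.8). These were the largest increases of the 10 genes in HepG2S3, at log2 changes of 2.90 and 2.89. In HCC4006GR, IL1B was at 63.3 CPM against 0.294 CPM and IL1A at 25.2 CPM against 0.294 CPM, each from 4 parental counts. Their fold intervals, 83.8 to 792 and 33.2 to 317, are wide for that reason.

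In the ovarian UWB1.289 family IL1A was at 23.3 CPM in the parental line, 53.0 CPM in U10 and 87.2 CPM in U100, and IL1B at 2.84, 10.3 and 20.7 CPM. HCC827P had high levels of both, 89.3 CPM of IL1A and 58.4 CPM of IL1B. HCC827GR had 144 and 57.8 CPM, both within 2-fold. The pancreatic lines split again. PancVB had 14.2 CPM of IL1A and 3.68 CPM of IL1B, PancB1V 13.8 and 3.02 CPM, and PancB1Q 3.61 and 0.350 CPM, 3.94-fold lower (3.15 to 4.98) for IL1A and 10.5-fold lower (5.43 to 22.8) for IL1B. In HCC4006P1, HCC4006ER, IGROV-1 and IGROV-1/CDDP both were at or below 1.13 CPM in every library.

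IL6 was at 1.03 CPM in HCC4006P2 and 77.9 CPM in HCC4006GR, 75.7-fold higher (45 to 139). HCC827GR had 90.6 CPM against 8.42 CPM in HCC827P, 10.8-fold higher (9.07 to 12.8), the largest change of the 10 genes in that pair. UWB1.289 had 4.9 CPM, U10 43.7 CPM and U100 30.8 CPM, 8.91-fold (6.75 to 11.9) and 6.28-fold higher (4.75 to 8.44). IL6 was thus higher in both gefitinib-resistant and both olaparib-resistant lines. In PancB1Q it was at 2.00 CPM against 15.7 CPM in PancVB, 7.89-fold lower (5.95 to 10.6), and in PancB1V at 13.2 CPM, 1.19-fold lower (1.02 to 1.39). HCC4006P1 had 3.42 and 4.05 CPM and HCC4006ER 4.25 and 5.60 CPM, within 2-fold. HepG2 had 0 counts in both libraries, HepG2S1 1.32 CPM and HepG2S3 0.500 and 1.21 CPM, too low on average to be counted.

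LIF, the other gp130 cytokine, was the gene that could be measured in all 10 pairs, past 2-fold higher in 4 and lower in 2. It was at 44.8 CPM in HCC4006P2 and 266 CPM in HCC4006GR, 5.95-fold higher (5.47 to 6.49). PancB1V had 65.1 CPM and PancB1Q 43.0 CPM against 19.2 CPM in PancVB, 3.38-fold (3.03 to 3.77) and 2.23-fold higher (2.00 to 2.50). Of the 10 genes, LIF alone was counted past 2-fold higher in PancB1Q at the pseudocount of 1 CPM. With 5 CPM its log2 change was 0.99, and CXCL3, 2.41-fold higher in CPM, was past 2-fold with TMM and DESeq2 scaling and with 0.1 CPM. UWB1.289 had 41.8 CPM, U10 87.8 CPM and U100 68.6 CPM, with log2 changes of 1.05 and 0.70 on either side of the 2-fold limit. HCC827GR had 78.1 CPM against 56.4 CPM.

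LIF was lower in the remaining lines. HCC4006P1 had 114 and 122 CPM and HCC4006ER 28.7 and 27.5 CPM, 4.2-fold lower in the means (3.96 to 4.44 over the pairings). IGROV-1 had 34.5 CPM and IGROV-1/CDDP 4.79 CPM, 7.20-fold lower (5.95 to 8.77), the only change past 2-fold in that pair. HepG2 had 38.5 and 40.8 CPM, HepG2S1 21.4 CPM and HepG2S3 20.2 and 24.3 CPM, so that the resistant libraries lay below both parental ones. Their log2 changes of -0.86 and -0.80 became -1.30 and -1.22 with TMM library sizes, which shift these pairs by -0.46 and -0.43 as a whole.

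CSF2 was at 2.13 CPM in HCC4006P2 and 211 CPM in HCC4006GR, 98.9-fold higher (68.7 to 148). It was 11-fold higher in PancB1V (7.46 to 82.1 CPM, interval 9.37 to 13.0), 13.1-fold in U10 (2.32 to 30.4 CPM, 8.83 to 20.2) and 8.5-fold in U100 (19.8 CPM, 5.71 to 13.2). HCC827P had 82.3 CPM and HCC827GR 154 CPM, and PancB1Q 12.5 CPM, all within 2-fold of the parental line. In HCC4006P1 it was at 0.534 and 0.615 CPM and in HCC4006ER at 1.57 and 1.28 CPM, where the libraries did not overlap but the log2 change was 0.62, and 1.18 with a pseudocount of 0.1 CPM. CSF2 had 0 counts in every library of the HepG2 and IGROV-1 families. CSF2 was past 2-fold lower in 0 of the 7 pairs in which it was measured, as were CCL2, CXCL1 and CXCL3 in theirs.

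The CXCL genes have further relatives within or beside the same stretch of chromosome 4, which were named after their values were seen. CXCL5, between CXCL1 and CXCL3, also acts on CXCR2. It was measured in 6 pairs and was past 2-fold higher in all 6, from 0.294 to 135 CPM in HCC4006GR, from 1033 to 4185 CPM in HCC827GR and from 23.0 to 349 CPM in U10. In PancB1Q it was at 86.0 CPM against 30.4 CPM in PancVB. CXCL6 was measured in 4 pairs and higher in 3, and reached 115 CPM in HCC4006GR against 0.220 CPM. The platelet chemokines PF4, PF4V1 and PPBP were at most at 0.203 CPM in any line. MTHFD2L, the next gene past CXCL2 and an enzyme of folate metabolism, was measured in 10 pairs and within 2-fold in all 10. RASSF6, the last gene before CXCL8, was past 2-fold higher in 5 of the 8 pairs in which it was measured and lower in 1.

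Genes whose pattern was most like that of each cytokine were named by the Pearson correlation of log2(CPM + 1) over the 17 lines, among 14619 genes with a mean of at least 1 CPM. The lines share parental lines, so this is a description with no test. Nearest to CCL2 was TLR2, a receptor for bacterial lipoproteins (r = 0.94), followed by CMPK2, ZSWIM4 and PDLIM4 at 0.89 and NFKBIE, an NF-kappaB inhibitor, at 0.88. None of the other 9 cytokine genes was among the 5 nearest to CCL2, and their own correlations with it ran from 0.28 for IL1B to 0.69 for IL6 and CSF2. CXCL1 was nearest to CXCL5 (0.97) and CXCL8 (0.93). CXCL2 was nearest to ZC3H12A (0.94), an RNase that degrades cytokine mRNA, and to IL1B (0.94). IL1A was nearest to SAA1, an acute-phase protein (0.91), and IL1B to CXCL2 (0.94) and SAA2 (0.93). CSF2 was nearest to TNFRSF9 (0.95), a co-stimulatory receptor, and IL6 to CSF2 (0.87), while LIF had no gene above 0.85, that of PTPRK.

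The receptors of these ligands were tested in the replicated pairs alone. By the 2-fold rule, U100 had 4 of 9 measured higher and 0 lower (6.37% and 1.76% of all genes). U10 had 2 of 9 and 0 (6.36% and 5.01%). HepG2S1 had 2 of 9 higher and 5 lower (25.8% and 18.3%), and IGROV-1/CDDP 2 of 9 and 2 (5.5% and 7.19%). HCC4006GR had 0 of 7 either way (7.67% and 7.48%). PancB1Q and HCC827GR each had 1 of 7 higher and 0 lower (6.14% and 9.41%, and 10.5% and 7.79%). PancB1V had 1 of 8 and 0 (8.72% and 7.24%). Of 14 receptor genes, 9 could be tested in HepG2S3 against HepG2 with edgeR's quasi-likelihood test, and 1 was higher and 6 were lower (median log2 change -1.65), against 31.4% and 32.1% of all genes with a median of -0.01. CSF2RA, the GM-CSF receptor subunit, rose from 0.355 and 0.603 to 49.4 and 54.5 CPM (log2 fold change 6.44 ± 0.279 (SE), edgeR adjusted p = 6.59e-05), although its ligand gene had 0 counts. IL1R1, the signalling receptor for interleukin 1, fell from 234 and 151 to 5.75 and 4.60 CPM (-5.53 ± 0.307, edgeR adjusted p = 0.000122), and the decoy receptor IL1R2 from 4.78 and 7.52 CPM to 0 (edgeR adjusted p = 0.000628). IL6R fell by 2.41 ± 0.225 on the log2 scale, from 67.4 and 101 to 19.1 and 20.1 CPM (edgeR adjusted p = 0.000596).

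In HCC4006ER against HCC4006P1, 7 receptor genes could be tested, with 2 higher and 1 lower (median 0.38), against 22.5% and 23.6% of all genes (median 0.02). Without HCC4006P1 replicate 1 there were 6 higher, and with all genes in the fit 0. IL6R fell from 49.5 and 50.6 to 4.15 and 4.42 CPM (-3.52 ± 0.205, edgeR adjusted p = 7.45e-05). IL1R1 rose from 14.7 and 7.18 to 34.2 and 25.7 CPM (1.54 ± 0.259, edgeR adjusted p = 0.00432), and LIFR from 112 and 57.4 to 151 and 132 CPM (0.82 ± 0.207, edgeR adjusted p = 0.0193). Both increases lost their call when the genes without counts in HCC4006P1 replicate 1 were kept in the fit. Over the alternatives the edgeR or DESeq2 adjusted p ran from 1.75e-28 to 0.0628 for IL1R1 and from 8.98e-20 to 0.119 for LIFR. IL6R fell in both pairs, whereas IL1R1 moved in opposite directions.

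Related ligands and inhibitors, 25 genes of which 24 were found in the files by symbol, were counted by the 2-fold rule, with the shares of all genes higher and lower in parentheses. Of the 17 measured, 14 were higher and 0 lower in HCC4006GR (7.67% and 7.48% of all genes), 8 of 13 higher and 0 lower in U100 (6.37% and 1.76%), 8 of 13 higher and 1 lower in U10 (6.36% and 5.01%), 8 of 15 higher and 1 lower in PancB1V (8.72% and 7.24%), and 7 of 12 higher and 2 lower in HCC827GR (10.5% and 7.79%). PancB1Q had 4 of 13 higher and 2 lower (6.14% and 9.41%) and IGROV-1/CDDP 3 of 7 higher and 0 lower (5.5% and 7.19%). HepG2S1 and HepG2S3 each had 2 of 10 higher and 7 lower (25.8% and 18.3%, and 27.5% and 17.4%), and HCC4006ER 3 of 9 higher and 3 lower (11.7% each). TNF, the upstream inflammatory cytokine, was at 1.24 CPM in PancVB, 34.0 CPM in PancB1Q and 109 CPM in PancB1V. CCL20, which attracts lymphocytes and dendritic cells, was at 0.430 CPM in UWB1.289, 20.2 CPM in U10 and 54.5 CPM in U100. IL11, a further gp130 cytokine, was at 6.61 CPM in HCC4006P2 and 168 CPM in HCC4006GR. In HepG2S3, 11 of these genes could be tested with edgeR, and 2 rose and 8 fell (median -5.38), against 31.4% and 32.1% of all genes. CCL20 fell from 239 and 141 to 0.344 and 0.294 CPM (edgeR adjusted p = 6.97e-05). CX3CL1, a membrane-bound chemokine, fell from 140 and 92.5 to 0.187 and 0.0653 CPM (edgeR adjusted p = 7.21e-05), and IL1RN, the antagonist of interleukin 1, from 45 and 51.5 to 0 and 0.0653 CPM (edgeR adjusted p = 7.01e-05). CTF1, also a gp130 ligand, fell from 0.901 and 0.631 CPM to 0 (edgeR adjusted p = 0.00218). HepG2S3 thus had higher IL1A and IL1B together with lower IL1R1, IL1R2 and IL1RN than HepG2.

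In HCC4006ER, 10 of these genes could be tested, and 4 rose and 3 fell (median 0.63), against 22.5% and 23.6% of all genes. CXCL12, a chemokine of stromal cells, rose from 0.0534 CPM and 0 to 191 and 167 CPM (edgeR adjusted p = 1.27e-05). CX3CL1 rose from 0.0534 CPM and 0 to 0.860 and 0.770 CPM (edgeR adjusted p = 0.00379). CXCL16 fell from 49.4 and 44 to 2.28 and 2.93 CPM (-4.12 ± 0.205, edgeR adjusted p = 4.37e-05), and IL18, an inflammasome-processed cytokine, from 25.9 and 22.8 to 1.57 and 2.00 CPM (-3.73 ± 0.212, edgeR adjusted p = 6.86e-05). The chemokine genes thus moved in both directions in this line.

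The NF-kappaB list held 20 genes, subunits of the factor, its inhibitors and feedback genes it is known to induce, of which 18 were found by symbol. By the 2-fold rule, 11 of 18 were higher and 0 lower in HCC4006GR (median 1.47, against 7.67% and 7.48% of all genes). PancB1V had 7 higher and 0 lower (0.84, against 8.72% and 7.24%) and U100 likewise 7 and 0 (0.90, against 6.37% and 1.76%). HCC827GR had 7 higher and 1 lower (0.68, against 10.5% and 7.79%) and U10 4 higher and 0 lower (0.66, against 6.36% and 5.01%). TNFAIP3 (A20), which ends NF-kappaB signalling, was at 13.8 CPM in HCC4006P2 and 344 CPM in HCC4006GR, at 61.7 CPM in PancVB and 311 CPM in PancB1V, and at 90.8 CPM in UWB1.289, 213 CPM in U10 and 280 CPM in U100. ICAM1, a leukocyte adhesion molecule, was at 97.1 CPM in HCC4006P2 and 697 CPM in HCC4006GR. PancB1Q had 0 of 18 higher and 1 lower (6.14% and 9.41% of all genes), and IGROV-1/CDDP 0 of 17 higher and 4 lower (median -0.39, against 5.5% and 7.19%). Of the 18 genes, 3 were higher and 3 lower in HepG2S1 (25.8% and 18.3% of all genes), 3 and 4 in HepG2S3 (27.5% and 17.4%), and 1 and 1 in HCC4006ER (11.7% each). Median changes of all genes were 0.23 in HepG2S1 and 0.28 in HepG2S3, and ran from -0.10 to 0.06 in the other pairs.

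**Figure D4:**
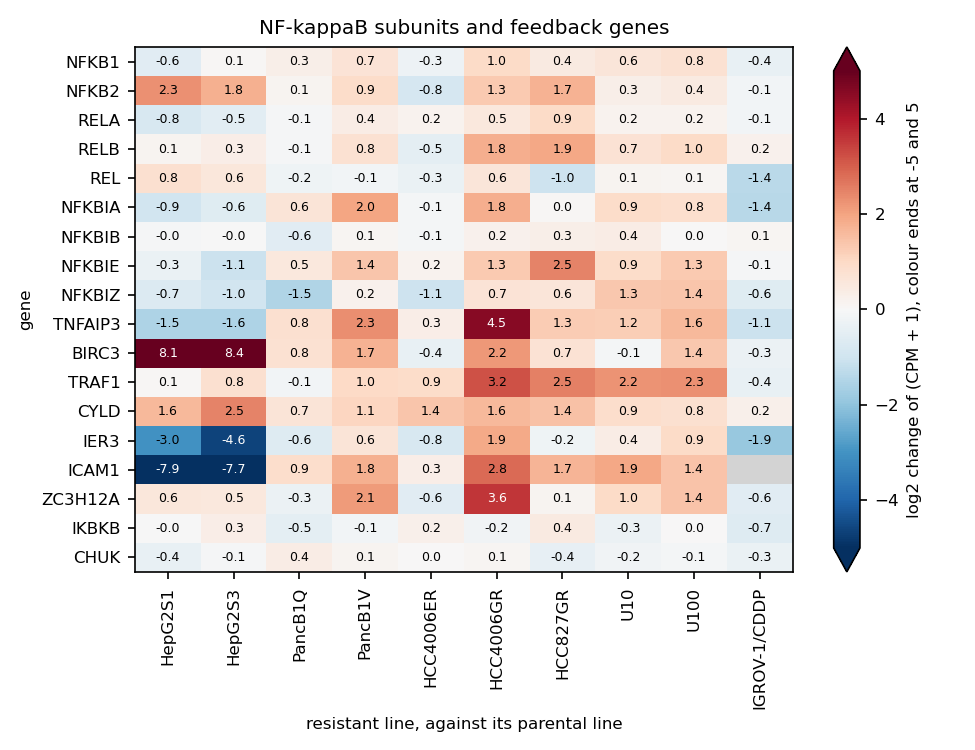
Log2 change of (CPM + 1), resistant minus parental, of the 18 NF-kappaB genes found (rows) in the 10 pairs (columns), with grey where the mean was below 1 CPM. TNFAIP3, TRAF1 and ICAM1 are red in HCC4006GR, HCC827GR, U10 and U100, while in HepG2S1 and HepG2S3 BIRC3 is dark red beside dark blue ICAM1. TRAF1 and IKBKB in HCC4006ER rest on HCC4006P1 replicate 2 alone.

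The HepG2 and HCC4006P1 families had no such common direction. In HepG2S3, 4 of 18 tested NF-kappaB genes rose and 7 fell (median -0.29), against 31.4% and 32.1% of all genes, and over the alternatives 3 to 6 rose and 5 to 9 fell. BIRC3, an inhibitor of apoptosis, rose from 2.29 and 4.56 to 1343 and 1569 CPM (8.42 ± 0.416, edgeR adjusted p = 8.74e-05), and CYLD, a deubiquitinase that restrains the pathway, from 31.2 and 26.5 to 158 and 170 CPM (2.19 ± 0.151, edgeR adjusted p = 0.000224). ICAM1 fell from 257 and 329 to 0.125 and 0.653 CPM (-9.87 ± 0.573, edgeR adjusted p = 0.000135), and IER3, an early response gene, from 291 and 195 to 8.75 and 8.98 CPM (-5.09 ± 0.261, edgeR adjusted p = 9.6e-05). In HCC4006ER, 1 of 16 rose and 4 fell (median -0.17), against 22.5% and 23.6% of all genes. Without either HCC4006ER library 2 fell, without HCC4006P1 replicate 2 there were 4 higher and 7 lower, and without HCC4006P1 replicate 1 there were 2 and 6. CYLD rose by 1.46 ± 0.120 (edgeR adjusted p = 0.000268), and NFKB2, a precursor subunit, fell by 0.80 ± 0.121 (edgeR adjusted p = 0.00276). IER3 (-0.76 ± 0.121, edgeR adjusted p = 0.00343) and ZC3H12A (-0.54 ± 0.148, edgeR adjusted p = 0.0267) also fell, but IER3 lost its call without either HCC4006ER library, and ZC3H12A also with DESeq2 and with all genes in the fit. Their edgeR or DESeq2 adjusted p over the alternatives ran from 8.72e-14 to 0.0562 and from 0.000208 to 0.303. CYLD was thus the feedback gene that rose in both replicated pairs, whereas NFKB2 rose in HepG2S3, by 1.51 ± 0.137 (edgeR adjusted p = 0.000537).

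Among 12 AP-1 and C/EBP factors, which act on the same promoters, all 12 could be tested in HepG2S3, and 2 rose and 8 fell (median -0.94), against 31.4% and 32.1% of all genes. Without HepG2S3 replicate 1 the number that fell was 5. FOSL2, an AP-1 subunit, rose from 52.9 and 104 to 404 and 361 CPM (1.97 ± 0.330, edgeR adjusted p = 0.00424). CEBPA, a factor of liver differentiation, fell from 101 and 82.3 to 2.56 and 3.10 CPM (-5.33 ± 0.211, edgeR adjusted p = 5.29e-05), beside the low liver markers. FOSB fell by 3.01 ± 0.779 (edgeR adjusted p = 0.0197) and the stress-induced ATF3 by 2.23 ± 0.161 (edgeR adjusted p = 0.000264). In HCC4006ER, 1 of 11 rose and 6 fell (median -0.56), against 22.5% and 23.6% of all genes. With all genes in the fit 0 fell, and without HCC4006P1 replicate 2 there were 3 higher and 8 lower. FOSL2 again rose, from 166 and 149 to 433 and 412 CPM (1.46 ± 0.134, edgeR adjusted p = 0.000407). FOS (-1.34 ± 0.437, edgeR adjusted p = 0.0469), FOSB (-1.85 ± 0.444, edgeR adjusted p = 0.0165) and JUN (-0.95 ± 0.180, edgeR adjusted p = 0.00693) fell, each from a higher level in HCC4006P1 replicate 1 than in replicate 2. FOS was at 188 and 51.7 CPM in these libraries and 44.4 and 41.8 CPM in HCC4006ER. The call of FOS was also lost with DESeq2.

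The JAK-STAT3 arm, through which IL6 and LIF signal, held 10 genes. In HepG2S3, 2 rose and 3 fell (median 0.26), against 31.4% and 32.1% of all genes. Without either HepG2S3 library 0 fell, and without HepG2 replicate 1 or 2 there were 4 or 6 higher. JAK1 rose from 149 and 191 to 447 and 427 CPM (1.05 ± 0.160, edgeR adjusted p = 0.00308) and PIAS3, an inhibitor of STAT3, by 1.45 ± 0.160 (edgeR adjusted p = 0.00102). SOCS1, a feedback inhibitor, fell by 2.23 ± 0.604 (edgeR adjusted p = 0.0231) and the kinase PIM1 by 0.72 ± 0.228 (edgeR adjusted p = 0.0378). Both calls were lost without either HepG2S3 library, with edgeR or DESeq2 adjusted p over the alternatives from 1.93e-14 to 0.073 and from 9.64e-21 to 0.194, and the CPM of PIM1 overlapped between the lines. In HCC4006ER, 6 of 9 rose and 0 fell (median 0.46), against 22.5% and 23.6% of all genes. Those that rose were 2 without HCC4006ER replicate 1, 3 without replicate 2 and 2 with all genes in the fit. SOCS1 rose from 1.12 and 0.513 to 8.5 and 7.76 CPM (3.38 ± 0.303, edgeR adjusted p = 0.000375), PIM1 by 1.04 ± 0.137 (edgeR adjusted p = 0.00171) and BCL3 by 0.83 ± 0.175 (edgeR adjusted p = 0.0103). JAK1 rose by 0.46 ± 0.122 (edgeR adjusted p = 0.0234). With all genes in the fit BCL3 and JAK1 lost their call, as did BCL3 without HCC4006ER replicate 1 and JAK1 without either HCC4006ER library. Their edgeR or DESeq2 adjusted p over the alternatives ran from 3.76e-15 to 0.0795 and from 9.76e-06 to 0.273.

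Of 7 factors that set the stability of cytokine mRNA, 2 rose and 4 fell in HepG2S3 (median -0.51), against 31.4% and 32.1% of all genes, and 1 rose and 2 fell without either HepG2S3 library. ZFP36 (tristetraprolin), which degrades mRNA with AU-rich elements, rose from 14.4 and 12.8 to 33.2 and 36.6 CPM (1.04 ± 0.159, edgeR adjusted p = 0.00305). Its relative ZFP36L2 fell from 227 and 187 to 59.2 and 62.0 CPM (-2.09 ± 0.156, edgeR adjusted p = 0.000294), RC3H1 (roquin) by 1.13 ± 0.167 (edgeR adjusted p = 0.00271) and ZFP36L1 by 0.51 ± 0.124 (edgeR adjusted p = 0.0154), the last lost without either HepG2S3 library. In HCC4006ER, 0 of 7 rose and 3 fell (median -0.17), against 22.5% and 23.6% of all genes. Without either HCC4006ER library 2 fell, with all genes in the fit 1 fell, and without HCC4006P1 replicate 2 there were 2 higher and 4 lower. ZFP36 fell by 0.96 ± 0.175 (edgeR adjusted p = 0.00596) and ZFP36L2 by 0.94 ± 0.118 (edgeR adjusted p = 0.0014). HNRNPD, which also binds AU-rich elements, fell by 0.48 ± 0.140 (edgeR adjusted p = 0.0329), a call lost without either HCC4006ER library. The calls of ZFP36 and HNRNPD in HCC4006ER were also lost with all genes in the fit. ZFP36L2 thus fell in both replicated pairs, while ZFP36 moved in opposite directions.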

How the data were processed

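RNA sequencing libraries of 17 cell lines were analysed. The authors deposited whole-number counts of reads per Ensembl gene for each library without normalization, which HTSeq gave after mapping by Bowtie and TopHat to hg19, per the labels. Their methods also describe a 3′ end kit mapped with STAR without naming libraries, and versions are not given in the sources used here. The 5 summary rows without a gene, 28.0% to 42.8% of each total, were left out, reads of no unique place (19.3% to 31.9%) among them. Counts were matched to GENCODE symbols on GRCh37 for 45100 genes (84.3%), and CCL5, SOD2 and IKBKG were not matched.

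CPM were computed from the total on genes, replicates were averaged, and genes without counts in HCC4006P1 replicate 1 (8696 genes) took replicate 2 alone. Intervals are 95% Wilson intervals for levels and exact conditional intervals for ratios of 2 libraries, and, as PCR copies are not separate molecules, allow for counting error alone. The floor was 3 counts per library. Log2 changes used a pseudocount of 1 CPM, which understates changes of low genes.

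HepG2S3 against HepG2, and HCC4006ER against HCC4006P1 without the 8696 genes, were tested with edgeR 4.0.16 (quasi-likelihood, TMM, filterByExpr, Benjamini-Hochberg adjusted p under 0.05). The SE is the log2 fold change divided by the root of F, an approximation. Replicates are 2 libraries a line, not stated to be separate cultures, so that p-values measure the spread between these libraries. On simulated counts with 200 genes changed 4-fold, edgeR recovered 194 genes in the HepG2S3 design (5.37% false calls) and 198 in the HCC4006ER design (4.35%). The changed genes were well counted, as many up as down, and the simulated spread depended on level alone. Many more genes passed in the real pairs, so that these rates do not carry over to them. The genes and lists were chosen with earlier results of these data known. Named list genes are up to 4 per list and pair with the largest change past the test. TNF, CCL20, IL11, TNFAIP3 and ICAM1 in the unreplicated pairs, the genes beside the CXCL genes, and NFKB2 in HepG2S3 were named after their values were seen. Ranges of adjusted p over alternatives leave out the fit of all genes with the replicate block, in which 0 genes passed. DESeq2 1.42.0, R 4.3.3, Python 3.11.15, pandas 2.3.3 and scipy 1.17.1 were also used.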

Additional observations from a re-analysis of the deposited data

Results flagged for a closer look

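CXCL2 lay in opposite directions in the 2 pairs with replicates, with a log2 change of 1.58 in HepG2S3 and -1.29 in HCC4006ER. In each pair all resistant libraries lay on one side of all parental libraries, and the difference between the pairs was not tested. The levels were low, and the change in HCC4006ER ran from -1.81 to -0.56 over the pairings of libraries. Without HCC4006P1 replicate 1 it was not counted. With a pseudocount of 5 CPM the changes were 0.79 and -0.43, both within 2-fold.

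The same pattern, likewise untested as a difference, was met by 6 of the list genes named in the comparisons above, given as fitted log2 fold changes. CX3CL1 had -10.10 in HepG2S3 and 4.70 in HCC4006ER, and IL18 had 3.73 and -3.73. IL1R1 had -5.53 and 1.54, and SOCS1 had -2.23 and 3.38. NFKB2 had 1.51 and -0.80, and ZFP36 had 1.04 and -0.96. Among the other genes of these lists, CSF1 (-6.82 and 2.08), IL32 (-1.41 and 3.44), IL15 (2.71 and -1.39), JUNB (1.22 and -0.73) and STAT3 (-0.64 and 0.44) also passed the edgeR test in opposite directions, as did PIM1 (-0.72 and 1.04), whose libraries overlapped in HepG2S3. Counts per line were too few for a test of single libraries that stand apart.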

How the results depend on the processing

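Of 600 recomputed log2 changes of the 10 genes, 0 turned the direction of a change past 2-fold, which these settings could hardly do. A pseudocount cannot turn a direction, and the largest shift of a pair by scaling was -0.46. Libraries of the replicated pairs did not overlap in changes past 2-fold, so the 0 is no check of direction. In 21 of the 600, from 17 of the 100 gene and pair combinations, a change crossed the 2-fold limit. Of these, 12 had a pseudocount of 5 CPM, 2 one of 0.1 CPM, 4 TMM library sizes and 3 DESeq2 size factors. The count past 2-fold higher ran from 41 to 53 over these settings and that past 2-fold lower from 7 to 11. Leaving out any one replicate gave 51 higher and 8 to 9 lower. This could touch only the pairs of HepG2 and HCC4006P1, and 42 of the 51 higher lay in other pairs, with no replicate to leave out. Without the pairs of HepG2 and HCC4006P1, a choice made after seeing the data, 4 rather than 9 were lower.

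In HCC4006ER against HCC4006P1, 3099 genes were higher and 3237 lower. With all genes in the fit there were 1673 and 1744, and with all genes and the replicate block 0 and 0, although 5253 genes had an unadjusted p under 0.05. Without the other genes the replicate block gave 3842 and 3882. Leaving out a replicate gave between 1921 and 4347 higher and between 1977 and 4385 lower, fewest without HCC4006ER replicate 1. DESeq2 gave 2553 and 2968. In HepG2S3 against HepG2, 5308 were higher and 5436 lower, 5279 and 5282 with the replicate block, and 3567 to 6580 and 3737 to 6662 without 1 replicate. Deviations of same-numbered libraries had correlations of 0.0105 for HepG2S3 with HepG2 and 0.164 for HCC4006ER with HCC4006P1, over 2 pairs each, and the labels give no shared culture or day, so that the numbers were not taken as pairing. Depth limits genes under 0.305 CPM in the shallowest library. The causes of these differences were not tested.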
